A study of Mus musculus with 8 samples.

Results

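The 10 genes described here belong to bone morphogenetic protein (BMP) and TGF-beta signalling in colonic epithelial cells. They were taken by symbol from 35963 gene symbols in a table of transcript counts: the ligands Bmp2, Bmp4 and Tgfb1, the receptors Bmpr1a and Tgfbr2, the inhibitory Smads Smad6 and Smad7, and the target genes Id1, Id2 and Id3. The libraries came from colonic epithelial cells of the proximal colon of 4-week-old mice. In all of the mice both copies of Ccna2, the cyclin A2 gene, carried sites for Cre recombinase (Ccna2 fl/fl). In the 4 libraries labelled Ccna2-KO the mice also carried vil-Cre, a Cre driven by the villin promoter, which acts in intestinal epithelium, and the labels give their genotype as Ccna2-/-. The short form Ccna2-KO stands for these libraries by their label. The 4 control libraries, labelled wild type, came from Ccna2 fl/fl mice without Cre. Separate mice per library are not stated, so p-values measure only the spread between these libraries, which may be technical.

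BMP and TGF-beta ligands bind pairs of type I and type II receptor kinases, which phosphorylate receptor Smads. These join Smad4 and enter the nucleus, where BMP signals induce the Id genes. Id proteins lack a DNA-binding region and hold E proteins, which are helix-loop-helix transcription factors, away from DNA. Smad6 and Smad7 are induced by the same signals and restrain them. In the colon BMP signalling is known to be strongest towards the crypt top, and TGF-beta is known to limit growth of the epithelium.

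Of the 10 genes, Tgfbr2 and Bmp4 rose in the libraries labelled Ccna2-KO and 0 fell (edgeR quasi-likelihood test, adjusted p under 0.05; also 0 lower at an unadjusted p under 0.05, in DESeq2 and in limma voom). Tgfbr2, the type II TGF-beta receptor, was 2.71-fold higher, and Bmp4 was 7.32-fold higher from a level near 0. The levels of Id1, Id2 and Id3 overlapped between the groups. Across all 15893 genes tested, 12.1% passed this threshold, 6.4% higher and 5.71% lower, and the 2 of 10 genes stand beside that background share. The median log2 fold change was -0.06 over the 10 genes and -0.01 over all genes tested. Groups without overlap occurred in the same 2 genes, both higher, and in 19% of all genes tested (9.41% higher and 9.6% lower). Bmp4 passed the filter on low counts only through the Ccna2-KO libraries, where it is high, so its call and its lack of overlap are a description. A stricter filter left Bmp4 out, and 1 gene, Tgfbr2, was then called.

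Some facts about the libraries bear on every comparison. Each held between 27162083 and 34386731 estimated counts. The targeted gene, Ccna2, did not separate the groups: its level was 11.9 to 54.3 CPM (counts scaled to a fixed library total after correction for composition) in control libraries and 16.2 to 26.6 CPM in those labelled Ccna2-KO (log2 fold change -0.33 ± 0.41 SE, edgeR adjusted p = 0.673). It was 0.24 without control replicate 1 (edgeR adjusted p = 0.565) and -0.71 ± 0.30 once the number set described next is in the fit (edgeR adjusted p = 0.133). Between those sets Ccna2 was higher in the high set by a log2 difference of 1.06 (edgeR adjusted p = 0.0374; 0.55 and 0.546 without control replicate 1). The counts are per transcript and not per exon, so a deletion of some exons is not checked by them, and directions rest on the labels. The labels also number the libraries, in a low set (595 to 598; 3 controls and Ccna2-KO replicate 4) and a high set (621 to 641; Ccna2-KO replicates 1, 2 and 3 and control replicate 1). The meaning of these numbers was not given in the sources used here. Each set holds 3 libraries of one genotype and 1 of the other, so a fit with a term for the set is given beside the results it bears on. With that term Tgfbr2 and Bmp4 were again the 2 genes called, against 18.2% of all genes tested. In RNA from a cell isolate, fewer cells of a type and less RNA per cell cannot be told apart.

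The Id genes are a family of short transcripts that are alike in one coding stretch, which is shown here because reads from alike genes can be assigned to the wrong one. The lines give 90 coding bases (GRCm38), chosen as the stretch of Id1 to which the least similar of Id2, Id3 and Id4 came closest. Those genes were not compared with each other for this choice. Capitals mark the 48 bases (53.3%) that are the same in Id1, Id2, Id3 and Id4. The stretch lies at chr2:152736518-152736607 on the plus strand for Id1, at chr12:25095813-25095902 on the minus strand for Id2, at chr4:136144002-136144091 on the plus strand for Id3 and at chr13:48261693-48261782 on the plus strand for Id4.
Id1: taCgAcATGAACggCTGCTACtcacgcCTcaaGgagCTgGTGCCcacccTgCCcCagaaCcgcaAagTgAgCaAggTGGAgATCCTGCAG
Id2: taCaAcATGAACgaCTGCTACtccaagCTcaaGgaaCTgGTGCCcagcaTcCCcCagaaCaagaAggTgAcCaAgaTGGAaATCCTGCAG
Id3: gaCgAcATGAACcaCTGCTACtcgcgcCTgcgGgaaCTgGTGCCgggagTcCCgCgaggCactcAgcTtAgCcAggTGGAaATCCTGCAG
Id4: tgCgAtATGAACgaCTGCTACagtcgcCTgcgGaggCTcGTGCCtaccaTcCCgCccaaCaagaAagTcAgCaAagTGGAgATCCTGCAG
The longest run of identical bases between any pair of the 4 transcripts was 19, between Id2 and Id3. Over the coding stretch shown, Id2 shared 73 bases with Id1, Id4 shared 67 and Id3 shared 62.

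Levels per length ranked the genes over a wide range in the controls. On a scale of CPM per kb of the matched curated transcript, Id1 was highest at 297 ± 27.3 (SD, n = 4) and Id3 second at 189 ± 45.5. Smad7 followed at 27.2 ± 6.46, Id2 at 20.7 ± 3.51, Bmpr1a at 17.0 ± 3.26 and Smad6 at 11.9 ± 2.16. The values of neighbours in this run from Smad7 to Smad6 overlapped, while Id1, Id3 and Smad7 did not overlap with each other. Tgfbr2 was at 7.01 ± 0.45, Bmp2 at 5.14 ± 1.50, Tgfb1 at 2.01 ± 0.12 and Bmp4 at 0.081 ± 0.032 CPM per kb. Of these, Tgfbr2 and Bmp2 overlapped. With the rise of Tgfbr2 to 19.0 ± 2.01 CPM per kb among libraries labelled Ccna2-KO, its values overlapped there with those of Id2 (25.6 ± 6.82), Smad7 (21.0 ± 8.24) and Bmpr1a (16.3 ± 1.07). The place of Bmpr1a is uncertain, since the transcript whose length was used held 15.2% to 34.5% of its counts. The value of Bmp4 is uncertain as well, since the transcript whose length was used held 0%, 0%, 72.2% and 0% of its control counts.

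**Figure D1:**
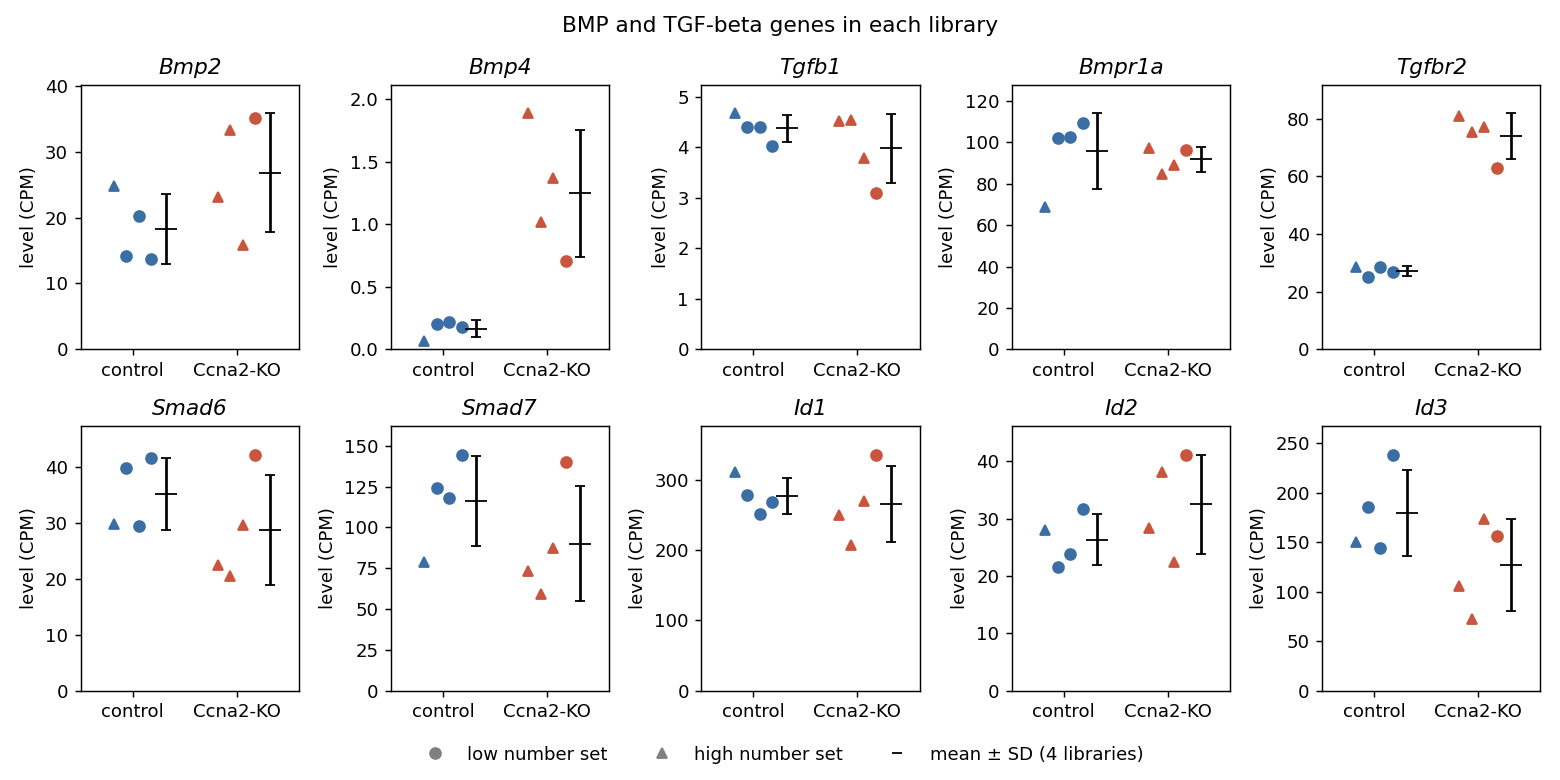
Level in CPM (y axis, from 0) of each of the 10 genes in the 4 control and the 4 Ccna2-KO libraries (x axis); points are libraries, circles the low and triangles the high number set, and bars the mean ± SD. Tgfbr2 and Bmp4 are the 2 genes whose groups do not overlap, with Tgfbr2 at 25.0 to 28.7 CPM in controls against 62.8 to 80.9 CPM in Ccna2-KO.

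Among the ligands, Bmp4 rose. Bmp4 (gene at chr14:46383525-46390669, GRCm38) encodes a BMP that, in the gut, is known mainly from the mesenchyme under the epithelium. Its counts were 2, 5, 7 and 6 in the controls (0.070, 0.20, 0.22 and 0.18 CPM) against 56, 34, 44 and 18 in Ccna2-KO (1.89, 1.02, 1.37 and 0.71 CPM). All 4 values of the second group lay above those of the first. This was a log2 fold change of 2.87 ± 0.42 (SE; edgeR adjusted p = 0.00349), and of 2.65 with the number set term. The gene passed the filter on low counts only through the group where it is high. Its counts were spread over 5 of 6 annotated transcripts. With curated transcripts alone the log2 fold change was 4.27 (edgeR adjusted p = 0.0418), a size that depends on the prior count because 3 of the controls are then at 0.

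Markers of stromal cells were set beside Bmp4. The summed level of 12 fibroblast markers was 21.6 to 39.2 CPM in controls against 36.2 to 65.7 CPM in Ccna2-KO. Without the matrix gene Fbln1, which averaged 1.27 CPM in controls and 15.3 CPM in Ccna2-KO, the sums were 20.6 to 38.3 and 21.7 to 52.8 CPM, and 3 of the 4 Ccna2-KO libraries lay within the control range. Of the 9 markers tested, edgeR called 1 higher (Fbln1) and 0 lower. At an unadjusted p under 0.05 it was 3 higher (Fbln1 and the collagen genes Col3a1 and Col6a1) and 1 lower (Pdgfrb), and in DESeq2 2 higher and 0 lower. The median log2 fold change of the 9 was 0.82. Col3a1 measured 1.05, 0.76, 2.49 and 1.03 CPM in the controls against 7.28, 3.12, 1.97 and 2.27 CPM in Ccna2-KO, and Dcn, the matrix proteoglycan decorin, 4.39, 5.23, 8.61 and 3.27 against 17.7, 10.1, 5.62 and 4.55 CPM. Both overlapped, were highest in Ccna2-KO replicate 1, as Bmp4 was, and did not pass (log2 fold changes 1.45 and 0.82, edgeR adjusted p = 0.0995 and 0.284). Of the 8 tested markers other than Fbln1, 6 had a positive log2 fold change. Pdgfrb and Vim leaned lower, from means of 6.72 and 12.3 CPM in controls to 4.87 and 8.54 CPM in Ccna2-KO. Their log2 fold changes were -0.46 and -0.52 (edgeR adjusted p = 0.162 and 0.328). The defining fibroblast receptor gene Pdgfra lay at 0.18 CPM or less in every library, and Lum, which encodes the matrix proteoglycan lumican, at 0.17 CPM or less. The 6 smooth muscle markers summed to 0.36 to 1.21 CPM in controls against 1.44 to 2.19 CPM in Ccna2-KO, and 1 of them, Des, could be tested and was called higher. Like Bmp4, Des had low counts (7, 4, 14 and 18 against 49, 37, 54 and 33) and passed the filter only through the group where it is high. The other 5, among them the actin gene Acta2 at 0.36 CPM or less in every library, were too low to test. The part of stromal RNA in the Bmp4 difference was not tested.

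Bmp2 (chr2:133552159-133562896), a ligand closely related to Bmp4, was higher per kb than Bmp4 in every library. Its level was 24.8, 14.2, 20.3 and 13.7 CPM in the controls against 23.2, 33.3, 15.9 and 35.0 CPM in Ccna2-KO. The groups overlapped, and the highest values were those of Ccna2-KO replicates 2 and 4, which belong to different number sets. The log2 fold change of 0.55 ± 0.28 (SE) did not pass (edgeR adjusted p = 0.244). Tgfb1 (chr7:25687002-25705077), which encodes the main TGF-beta ligand of immune and stromal cells, was low. It measured 4.67, 4.39, 4.40 and 4.03 CPM in the controls against 4.52, 4.53, 3.78 and 3.10 CPM in Ccna2-KO. These values overlapped as well (log2 fold change -0.13 ± 0.18 SE, edgeR adjusted p = 0.70). Summed markers of T cells, a source of Tgfb1, lay at 37.9 to 166 CPM in controls against 12.1 to 23.8 CPM in Ccna2-KO, and 10 of 10 tested markers fell. Among them Cd2 had low counts (9, 12, 22 and 21 against 1, 3, 3 and 1). It passed the filter on low counts only through the controls, where it is high. Cd3e (58, 173, 159 and 107 against 26, 10, 15 and 16) would not have met that filter on its Ccna2-KO libraries alone. Control replicate 1 had the lowest sum of the controls, with the others at 65.7 to 166 CPM, and with the number set term or in limma voom 8 of the 10 passed (with the term, Cd3d and Cd8a did not). Myeloid markers summed to 22.9 to 37.0 and 21.4 to 28.6 CPM, with 1 of 8 tested markers higher and 1 lower. The lower marker, Itgax, had counts of 20, 113, 87 and 44 against 24, 13, 16 and 8. Its Ccna2-KO libraries alone would likewise not have met the filter.

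Among the receptors, Tgfbr2 rose, with no overlap between the groups. Tgfbr2 (gene at chr9:116087695-116175363, minus strand, GRCm38) encodes the receptor kinase that binds TGF-beta first and then recruits the type I receptor. Its level was 28.7, 25.0, 28.7 and 26.8 CPM in the controls against 80.9, 75.2, 77.1 and 62.8 CPM in Ccna2-KO. The controls lay close together, control replicate 1 included, and Ccna2-KO replicate 4 was the lowest of its group. Its log2 fold change of 1.44 ± 0.11 (SE) had an edgeR adjusted p of 0.000151. With the number set term it was 1.33 ± 0.094 (edgeR adjusted p = 7.30e-05), and the set itself had a log2 difference of 0.20 ± 0.094 that did not pass (edgeR adjusted p = 0.138). Over all alternatives and left-out libraries the log2 fold change of Tgfbr2 ranged from 1.33 to 1.51.

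Both annotated Tgfbr2 transcripts took part. They differ by a coding exon of 75 bases, exon 2 of the 8 exons of the longer form, at chr9:116158271-116158345 on the minus strand (GRCm38). It adds 25 codons, for 592 codons against 567, and is shown because it defines the transcript whose share is compared.
Tgfbr2 extra exon: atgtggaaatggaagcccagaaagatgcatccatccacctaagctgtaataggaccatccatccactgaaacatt
The form with this exon took 42.2%, 25.6%, 29.3% and 38.4% of the Tgfbr2 counts in the controls against 47.3%, 30.3%, 31.5% and 24.3% in Ccna2-KO. The mean shares were 33.9 ± 7.75% and 33.4 ± 9.82% (SD, n = 4 each; exact two-sided permutation test, p = 0.943, with 0.0286 as the lowest p for groups of 4). The forms also differ in the length of the last exon, which can enter these estimates. Counts assigned to both forms were higher in Ccna2-KO, and the shares overlapped.

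**Figure D2:**
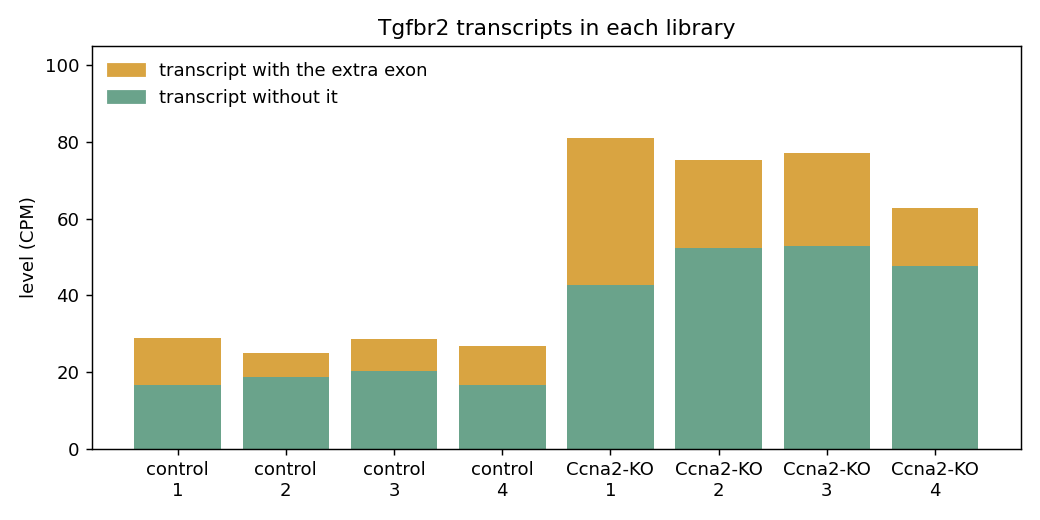
Level of Tgfbr2 in CPM (y axis, from 0) in each of the 8 libraries (x axis), divided by the estimated share of each transcript; the upper segment is the form with the extra exon of 75 bases and the lower segment the form without it. Totals are 25.0 to 28.7 CPM in controls against 62.8 to 80.9 CPM in Ccna2-KO, while the share of the upper segment runs from 24.3% to 47.3% with no separation of the groups.

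Bmpr1a (chr14:34411061-34503336), the main type I BMP receptor of the intestinal epithelium, had levels of 68.5, 102, 103 and 109 CPM in the controls against 97.2, 84.5, 89.1 and 96.2 CPM in Ccna2-KO. Control replicate 1 was the lowest of all libraries and the other controls exceeded every library labelled Ccna2-KO. Over all libraries its log2 fold change came to -0.06 ± 0.15 (SE; edgeR adjusted p = 0.844). It was 0.14 with the number set term and -0.19 without control replicate 1 (edgeR adjusted p = 0.0995).

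Of the inhibitory Smads, Smad7 separated the number sets and not the genotype labels. Smad7, which blocks type I receptors of both branches, had levels of 78.5, 124, 118 and 145 CPM in the controls against 73.4, 59.2, 87.4 and 140 CPM in Ccna2-KO. Control replicate 1 lay among the libraries labelled Ccna2-KO, and Ccna2-KO replicate 4 lay among the other controls. By number, the low set held 118 to 145 CPM and the high set 59.2 to 87.4 CPM, without overlap. By genotype the log2 fold change came to -0.37 ± 0.27 (SE; edgeR adjusted p = 0.437), and with the set term it was 0.01. With genotype in the fit, the high set was lower by a log2 difference of -0.82 ± 0.14 (edgeR adjusted p = 0.00816). Without control replicate 1 that difference was -0.93 (edgeR adjusted p = 0.0635) and without Ccna2-KO replicate 4 it was -0.71 (edgeR adjusted p = 0.0294). Between the sets, Smad7 was the 1 of the 10 genes called, where 22.3% of all genes tested were called, and the 1 gene without overlap, against 21.8%. Without control replicate 1 the set test called 0 of the 10 genes and 0.529% of all genes, and without Ccna2-KO replicate 4 it called 2 and 35.1%.

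Smad6 (chr9:63953076-64022085), which mainly restrains the BMP branch, had the profile most like that of Smad7. Its levels were 29.9, 39.9, 29.5 and 41.6 CPM in the controls against 22.4, 20.5, 29.7 and 42.3 CPM in Ccna2-KO. Ccna2-KO replicate 4 had the highest value of all 8 libraries, and the groups overlapped. By genotype the log2 fold change came to -0.29 ± 0.23 (SE; edgeR adjusted p = 0.474), and -0.05 with the set term. Between the sets the log2 difference was -0.56 ± 0.18 (edgeR adjusted p = 0.0508), which missed the threshold. Among the 45 pairs of the 10 genes, Smad6 and Smad7 had the most alike profiles, with a root mean square difference of 0.17 in centred log2 CPM over the 8 libraries, followed by Id3 and Smad6 at 0.25 and Id1 and Smad6 at 0.26.

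**Figure D3:**
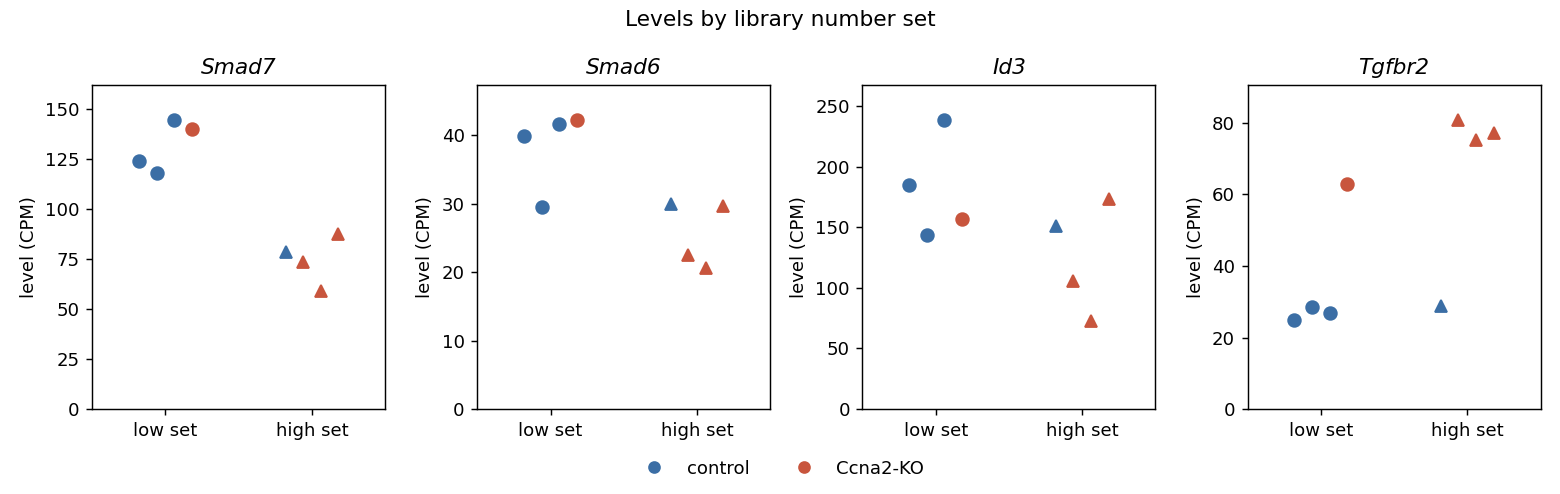
Level in CPM (y axis, from 0) of Smad7, Smad6, Id3 and Tgfbr2 in the libraries of the low and the high number set (x axis); colours mark control and Ccna2-KO. Smad7 separates the sets (118 to 145 against 59.2 to 87.4 CPM), while Tgfbr2 separates the genotype labels within each set.

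The Id targets did not pass the test. Id1 (chr2:152736251-152737410), the classical early target of BMP signals, was the highest of the 10 genes per kb. It measured 311, 278, 251 and 269 CPM in controls against 250, 207, 271 and 336 CPM in Ccna2-KO. The lowest and the highest value were both in the second group, in Ccna2-KO replicates 2 and 4. The log2 fold change of Id1 came to -0.06 ± 0.15 (SE; edgeR adjusted p = 0.851). Its curated transcript took 89.9% to 92.4% of Id1 counts in every library.

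Id3 and Id2 leaned in opposite directions within overlapping groups. Id3 (chr4:136143822-136145392), a BMP target that is also high in lymphocytes, had levels of 151, 185, 144 and 239 CPM in the controls against 106, 72.5, 174 and 157 CPM in Ccna2-KO. Its highest value was in control replicate 4 and its lowest in Ccna2-KO replicate 2. Id3 had a log2 fold change of -0.50 ± 0.27 (SE; edgeR adjusted p = 0.287), and -0.32 with the set term. Id2 (chr12:25093799-25096092), another BMP target, had levels of 28.1, 21.6, 23.9 and 31.6 CPM in the controls against 28.3, 38.2, 22.5 and 41.1 CPM in Ccna2-KO. Its log2 fold change came to 0.31 ± 0.20 (SE; edgeR adjusted p = 0.385), and Ccna2-KO replicates 2 and 4 exceeded all other libraries, as they did for Bmp2. The T cell markers that lay lower in the libraries labelled Ccna2-KO are given above, and their part in the Id3 values was not tested.

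**Figure D4:**
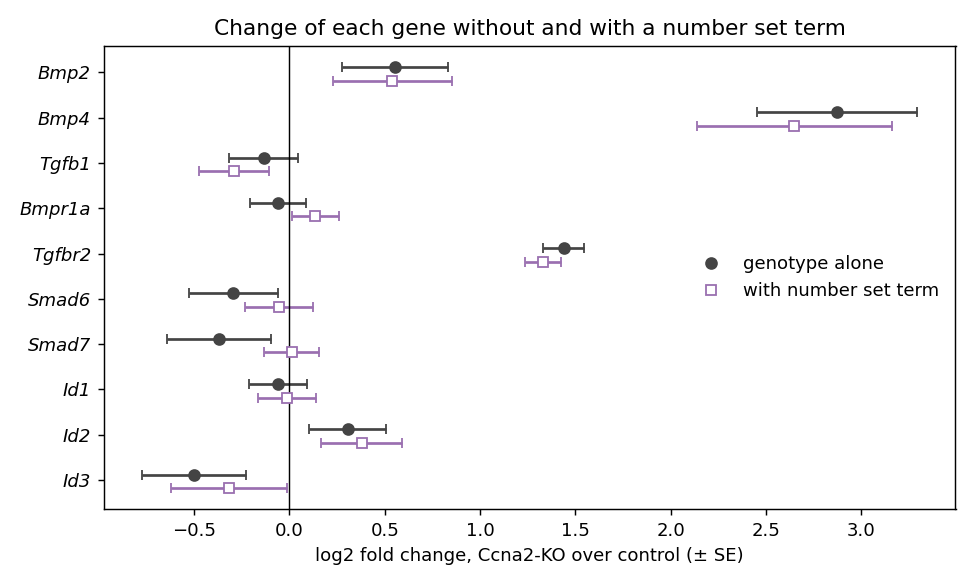
Log2 fold change of each of the 10 genes (y axis), Ccna2-KO over control (x axis), with SE bars; filled circles are the fit on genotype alone and open squares the fit with a term for the number set. Tgfbr2 (1.44 and 1.33) and Bmp4 (2.87 and 2.65) pass in both fits, and the value of Smad7 moves from -0.37 to 0.01.

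Promoter sequences are shown for the genes that rose, Tgfbr2 and Bmp4, and for the most alike pair that has an Id target, Id3 and Smad6. Promoters of 7 of the 10 genes were taken from RefSeq on GRCm38.p6, and sequence is printed as the 250 bases before an annotated start site. For Smad6 and Bmpr1a that start lies inside the gene span given above, so the window of Smad6 overlaps its gene and that of Bmpr1a lies within it. Smad7 was left out when these windows were taken, so nothing is stated on its promoter. Capitals mark CAGAC, which Smads can bind, or its reverse complement GTCTG. The GC-rich BMP motif GGCGCC was searched as well, on both strands, and the motifs do not overlap in these windows.
Tgfbr2, chr9:116175364-116175613, minus strand: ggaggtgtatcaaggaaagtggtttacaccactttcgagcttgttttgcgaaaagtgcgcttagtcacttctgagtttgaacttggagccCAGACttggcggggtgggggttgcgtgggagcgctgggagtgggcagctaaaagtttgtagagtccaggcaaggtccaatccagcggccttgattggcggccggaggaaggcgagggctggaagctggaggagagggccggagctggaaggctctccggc
Bmp4, chr14:46390670-46390919, minus strand: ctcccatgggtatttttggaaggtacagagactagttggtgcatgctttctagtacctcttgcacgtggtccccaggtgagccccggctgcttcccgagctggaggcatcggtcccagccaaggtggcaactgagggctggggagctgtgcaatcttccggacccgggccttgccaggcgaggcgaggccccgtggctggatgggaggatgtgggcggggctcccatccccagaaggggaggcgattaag
Id3, chr4:136143572-136143821, plus strand: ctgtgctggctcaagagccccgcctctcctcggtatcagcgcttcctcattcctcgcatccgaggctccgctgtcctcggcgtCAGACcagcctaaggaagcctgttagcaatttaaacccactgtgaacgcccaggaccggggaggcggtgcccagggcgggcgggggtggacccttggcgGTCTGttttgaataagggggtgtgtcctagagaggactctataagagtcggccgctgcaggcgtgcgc
Smad6, chr9:64022060-64022309, minus strand: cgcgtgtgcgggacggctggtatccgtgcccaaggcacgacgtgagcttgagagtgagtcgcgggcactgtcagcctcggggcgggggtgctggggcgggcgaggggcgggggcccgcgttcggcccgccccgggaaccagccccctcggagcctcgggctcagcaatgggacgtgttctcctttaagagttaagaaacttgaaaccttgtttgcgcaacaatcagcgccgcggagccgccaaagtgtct
The window of Id3 held CAGAC or its complement 2 times and that of Tgfbr2 1 time, and the windows of Bmp4 and Smad6 held 0. None of these 4 windows held GGCGCC, which occurred 1 time each in the windows of Id2 and Bmpr1a. Of 32851 windows of this length, 42.2% held CAGAC on either strand and 9.59% held GGCGCC. A match is a description of the letters and not a binding site.

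The genes most alike to Id1 and Tgfbr2 were looked up by their profiles over the 8 libraries, among tested genes with a mean log2 CPM of at least 1. For Id1 these were Cdc42ep5, an effector of the GTPase Cdc42, Prx and the epithelial keratin gene Krt19, with root mean square differences of 0.065, 0.084 and 0.084 in centred log2 CPM. Krt19 had 3497 to 4150 CPM in the controls against 3324 to 4727 CPM in Ccna2-KO, with its extremes in replicates 2 and 4, as for Id1. For Tgfbr2 they were Pear1, Atad2 and Atp6v0e2, with differences of 0.12, 0.12 and 0.13. Pear1 was higher by 1.30 ± 0.12, Atad2, a chromatin ATPase, by 1.40 ± 0.15 and Atp6v0e2, a subunit of the vacuolar proton pump, by 1.44 ± 0.12 on the log2 scale (SE). Likeness to Tgfbr2 fixes that these genes are higher in Ccna2-KO, so their values are a description.

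Of 70 other genes of the pathway, 49 could be tested, and 3 rose and 3 fell, a share near the 12.1% of all genes tested. Their median log2 fold change was -0.18. Ligands held the largest changes in both directions. Bmp3, an atypical BMP that restrains BMP signalling, fell from 50.5, 57.5, 58.1 and 55.6 CPM in controls to 9.91, 10.2, 6.24 and 11.0 CPM, a log2 fold change of -2.57 ± 0.17 (SE; edgeR adjusted p = 9.77e-05). Bmp8b rose from 2.93, 1.76, 3.17 and 2.30 CPM to 8.93, 8.31, 7.49 and 6.86 CPM (1.63 ± 0.21 SE, edgeR adjusted p = 0.00198). The groups did not overlap for either gene, and both directions held under every alternative and left-out library. Of the other TGF-beta and activin ligands, 1 of 5 was abundant enough to test, Tgfb3, with a log2 fold change of -0.85 ± 0.44 (SE; edgeR adjusted p = 0.26).

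Storage and activation of latent TGF-beta was represented by 7 tested genes, of which 1 rose and 1 fell. Thbs1, thrombospondin 1, which can release active TGF-beta from its latent complex, had the highest counts of them. It fell from 670, 1297, 1100 and 1358 CPM to 293, 312, 177 and 472 CPM (log2 fold change -1.82 ± 0.31 SE, edgeR adjusted p = 0.00664). Control replicate 1 was the lowest control. The set term changed the log2 value to -1.38 (edgeR adjusted p = 0.00196), and the high set was lower by a log2 difference of -0.88 ± 0.19 (edgeR adjusted p = 0.0152). That set difference was -0.86 (edgeR adjusted p = 0.167) without control replicate 1 and -0.90 (edgeR adjusted p = 0.0535) without Ccna2-KO replicate 4. Ltbp3, a latent TGF-beta binding protein, rose from 0.77, 0.48, 0.52 and 0.52 CPM to 1.85, 1.74, 1.37 and 1.22 CPM (1.43 ± 0.26 SE, edgeR adjusted p = 0.00805). Its counts were low, at 22, 12, 17 and 17 against 55, 58, 44 and 31. With curated transcripts alone Ltbp3 was not among the tested genes.

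Id4, the fourth Id gene, rose from 3.41, 1.28, 2.03 and 1.94 CPM to 4.55, 7.89, 4.24 and 4.39 CPM (log2 fold change 1.28 ± 0.33 SE, edgeR adjusted p = 0.0349). Its call ended when 1 library was left out in 6 of 8 cases, the exceptions being control replicate 1 and Ccna2-KO replicate 4 (edgeR adjusted p up to 0.103), and with curated transcripts alone (0.0564). Id4 was the 1 gene called of 6 tested other target genes, whose median log2 fold change was -0.49. At an unadjusted p under 0.05 in edgeR, 1 was higher (Id4) and 2 lower, Junb (-0.76) and Tgfbi (-1.32). Their edgeR adjusted p were 0.0923 and 0.0688. DESeq2 called 1 higher and 2 lower, and limma voom 1 and 0. Tgif2, a corepressor of Smads, fell from 2.20, 2.31, 2.52 and 2.76 CPM to 1.55, 1.50, 1.53 and 0.98 CPM (-0.81 ± 0.22 SE, edgeR adjusted p = 0.0414). That call ended without any 1 library other than control replicate 1 (edgeR adjusted p up to 0.108), with scaling by library size alone (0.0539), with no filter (0.0819) and with curated transcripts (0.642).

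The remaining lists had 0 genes past the threshold in the fit on genotype alone. They were 9 tested receptors, 6 signal-transducing Smads, 5 secreted antagonists and 3 genes for E proteins. At an unadjusted p under 0.05 in edgeR, 0 receptors, 2 Smads, 2 antagonists and 0 E protein genes passed. DESeq2 called 0, 2, 2 and 0 of them, and limma voom 0, 0, 1 and 0. With the number set term 1, 1, 1 and 0 passed: the activin receptor gene Acvr2a higher by 0.59, Smad5 lower at -0.39 and Chrd higher by 1.42 on the log2 scale (edgeR adjusted p = 0.022, 0.0295 and 0.0214). The Smads past the unadjusted threshold, both lower, were Smad1 and Smad5, which carry BMP signals, and the antagonists, both higher, were Chrd and Nbl1. Acvr1b, a type I activin receptor, averaged 108 ± 30.7 and 90.3 ± 12.1 CPM (SD, n = 4 each) with a log2 fold change of -0.26 ± 0.21. Without control replicate 1 it was -0.43 (edgeR adjusted p = 0.0296). Smad4, the common partner of the receptor Smads, averaged 101 ± 7.83 and 103 ± 6.48 CPM, a log2 fold change of 0.02 ± 0.096. Twsg1, a secreted BMP-binding protein, had a log2 fold change of 0.05 ± 0.11. Tcf12, an E protein that Id proteins bind, had -0.21 ± 0.12, and -0.31 without control replicate 1 (edgeR adjusted p = 0.0119).

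**Figure D5:**
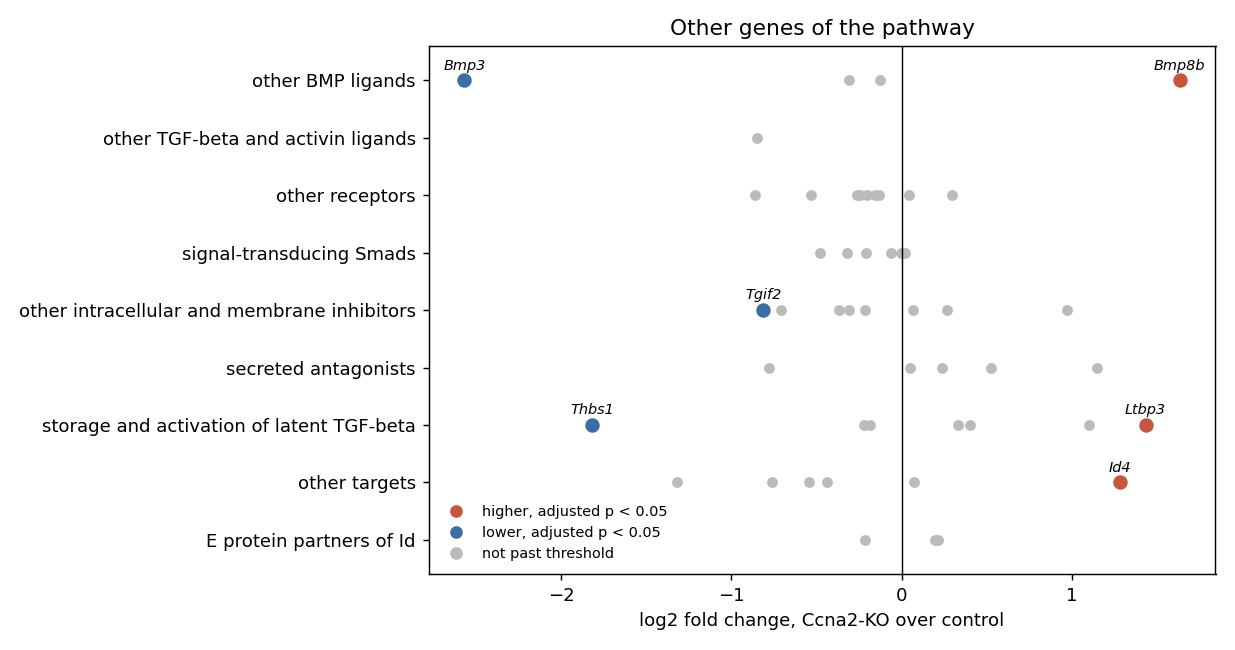
Log2 fold change, Ccna2-KO over control (x axis), of the 49 tested pathway genes outside the 10 described above, by list (y axis); red and blue points passed an adjusted p of 0.05 in edgeR and grey points did not. Bmp3 (-2.57) and Bmp8b (1.63) are the outermost points, and 3 genes lie on each side among those called.

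The cell type of the libraries was checked against markers. Epcam, the epithelial adhesion molecule, was at 1777 to 2030 CPM in all libraries and Cdh1, E-cadherin, at 843 to 1250 CPM. Of 12 epithelial markers edgeR called 0 higher (2 at an unadjusted p under 0.05, 2 in DESeq2) and 1 lower, the stem cell receptor gene Lgr5. Lgr5 counts were 158, 66, 98 and 135 in controls against 21, 23, 34 and 8 in Ccna2-KO. Its Ccna2-KO libraries alone would not have met the filter on low counts. At an unadjusted p under 0.05 Cdx2 was lower as well, and with the number set term Car1 and Slc26a3, genes of absorptive colonocytes, passed as higher (edgeR adjusted p = 0.0492 and 0.0407). Endothelial markers summed to 2.63 to 4.43 CPM in controls against 2.04 to 2.94 CPM in Ccna2-KO, with Cdh5, which defines endothelium, at 0.034 CPM or less. Of the 2 tested, 1 fell (Pecam1). B and plasma cell markers summed to 1.27 to 2.43 and 1.29 to 2.19 CPM, with 0 of 2 tested called by edgeR (0 unadjusted, 0 in DESeq2), and glial markers to 0.80 to 1.15 and 0.63 to 1.01 CPM, with 0 of 1 called (0 unadjusted, 0 in DESeq2) and Sox10 at 0. The part of these cells in the results above was not tested.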

How the data were processed

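Estimated counts per RefSeq transcript were deposited by the authors in 1 table of 107193 transcripts. The submitters' processing notes name kallisto and GRCm38 (mm10), without a version; use of strand was not given in the sources used here. Transcripts with no symbol (687, 3.19% to 5.51% of counts) were left out. Counts were summed per symbol, rounded and tested between 4 and 4 libraries with edgeR 4.0.16 in R 4.3.3 (filterByExpr, TMM scaling, robust quasi-likelihood F test, Benjamini-Hochberg adjustment over all 15893 genes tested, threshold 0.05). CPM are per TMM-scaled library size, and their log2 values use a prior count of 2. Library pairs differed beyond sampling noise. Control replicate 1 differed from the other controls by a chi-square per degree of freedom of 132 to 160. Among those other controls it was 21.5 to 46.2. The script was tested on simulated data.

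Alternatives were RLE, upper quartile and library size scaling, no filter, a stricter filter (at least 1 CPM throughout a group), DESeq2 1.42.0, limma 3.58.1 voom, the replicate number as a block, the number set, curated transcripts and each library left out. The test between the sets was added after seeing the data. The genes and lists were chosen with earlier results of these data known. Named genes are the 10 genes, Ccna2, called genes of each pathway list (at most 4) or else its most abundant one, and the 3 profiles most alike to Id1 and to the other member with the smallest adjusted p. Markers, and the genes Fbln1, Des, Pdgfra, Lum, Acta2, Epcam, Cdh1, Lgr5, Cdh5, Pecam1 and Sox10 among them, were named after their values were seen, as were Smad1, Smad5, Chrd, Nbl1, Acvr2a, Col3a1, Col6a1, Dcn, Cd3d, Cd8a, Car1, Slc26a3 and Cdx2. Pdgfrb, Vim, Cd2, Cd3e, Itgax, Junb and Tgfbi were likewise named after their values were seen. Lengths are those of GENCODE M21 transcripts matched to curated RefSeq ones, within the RefSeq gene. Positions and promoters are from RefSeq GRCm38.p6, exons and coding sequence from GENCODE M21 on GRCm38.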

Additional observations from a re-analysis of the deposited data

Results flagged for a closer look

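Of 56 groups of 4 libraries checked, 6 held a library far from the other 3, where chance gives about 1 in 20. Bmpr1a was at 68.5 CPM in control replicate 1 and at 102 to 109 CPM in the other controls. Tgfb3 was at 1.20 CPM in control replicate 3 (others 0.35 to 0.42) and at 0.41 CPM in Ccna2-KO replicate 3 (others 0.30 to 0.31). The Tgfb3 counts were low, at 10, 10, 39 and 14 in controls and 9, 10, 13 and 8 in Ccna2-KO. Tgif2 was at 0.98 CPM in Ccna2-KO replicate 4, against 1.50 to 1.55 CPM in the rest of its group. Ltbp3 was at 0.77 CPM in control replicate 1 (others 0.48 to 0.52). Id4 was at 7.89 CPM in Ccna2-KO replicate 2, where the other libraries of that group had 4.24 to 4.55 CPM.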

How the results depend on the processing

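Tgfbr2 passed with a log2 fold change of 1.33 to 1.51 under 18 alternatives, and Bmp4 passed in each of the 17 that tested it. The stricter filter left Bmp4 out, so 1 of the 10 genes was then called, and with 1 library left out it was 2 in each case. Over all genes the 1924 calls became 2949 with DESeq2, 2892 with the number set term, 961 with curated transcripts and with 1 library left out, 972 (Ccna2-KO replicate 3) to 4627 (control replicate 1). The 6 calls among other pathway genes became 15, 10, 3 and 4 to 22 (22 without control replicate 1, 11 without Ccna2-KO replicate 4). Same-numbered libraries did not deviate together (correlations -0.0694, -0.352, -0.263 and 0.153). Differently numbered ones ranged from -0.432 to 0.417. With 4 libraries per group such correlations cannot exclude pairs, and the labels name none. With the replicate block 987 genes were called, 2 of the 10 genes and 4 of the other pathway genes, and the calls of Tgif2 (0.146) and Id4 (0.0994) ended. Scaling shifted the median gene by -0.0112 to 0.00478.

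Directions of values that did not pass the test reversed as follows, and the cause was not tested. With the number set term the log2 fold changes were 0.14 for Bmpr1a, 0.011 for Smad7, 0.059 for Acvr1b, -0.044 for Twsg1 and 0.0088 for Cdc42ep5, and with curated transcripts 0.18 for Bmpr1a. With 1 library left out they ranged from -0.19 to 0.0072 for Bmpr1a, -0.19 to 0.045 for Id1, -0.021 to 0.072 for Smad4, -0.0064 to 0.11 for Twsg1, -0.58 to 0.24 for Ccna2, -0.22 to 0.017 for Cdc42ep5, -0.15 to 0.022 for Prx and -0.054 to 0.12 for Krt19. Depth limits Bmp4 most, at 2 to 7 counts in a control library.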
